A study of Mus musculus with 227 samples.

Results

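A set of 10 genes of the WNT pathway were followed across single cells of 4 sorted skeletal populations. They were 5 secreted antagonists (Sfrp1, Sfrp2, Frzb, Dkk2 and Dkk3), the intracellular inhibitor Nkd2, 3 genes transcribed in response to WNT signalling (Axin2, Lef1 and Tcf7) and the ligand Wnt5a. The members were chosen by name, with earlier results of these data known. All 10 were found among the 24388 genes of the expression table. Levels are in FPKM, a unit that divides fragment counts by transcript length and by the mapped fragments of the library. Detection of a gene meant an FPKM of at least 1 in that cell.

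WNT proteins are secreted ligands that bind Frizzled receptors and LRP co-receptors. In the canonical branch this binding stabilises beta-catenin, which enters the nucleus and activates transcription together with LEF and TCF proteins. Secreted frizzled-related proteins bind the ligands themselves, while proteins of the Dickkopf family such as Dkk2 act on the LRP co-receptors. In the growing skeleton, WNT signalling favours osteoblast formation and takes part in the maturation of growth plate cartilage.

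BL6 mice of postnatal day 3 were the source, and long bone cells were sorted by surface antigens, with no transgene or treatment named. All 4 gates required absence of CD45 and Ter-119 and presence of AlphaV integrin. The 6C3+ cells (92) were Thy-6C3+CD105+, the THY+ cells (72) Thy+6C3-CD105+, the CSP cells (26) Thy-6C3-CD105+ and the mSSC cells (37) Thy-6C3-CD105-CD200+. Absence of Tie2 was part of every gate but that of 6C3+. The populations are described by the series as skeletal stem, progenitor and stromal cells. Each library was 1 cell and no animal was named, so each population is 1 sample: no difference between populations has a replicate check, and no p-value was computed.

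Many cells yielded few genes. Cells with under 1000 detected genes made up 58 of 92 6C3+, 29 of 72 THY+, 15 of 26 CSP and 0 of 37 mSSC cells. Unless all cells are named, the values below come from cells above that number: 34 6C3+, 43 THY+, 11 CSP and 37 mSSC cells. Their median gene numbers were 2639, 2835, 3033 and 2534 in that order. The median ERCC spike-in share of FPKM was 18.9% for 6C3+, 20.8% for THY+, 0.000945% for CSP and 0.00117% for mSSC cells. CSP and mSSC libraries shared a set of index barcodes and 6C3+ and THY+ libraries used other sets, so library set and population cannot be told apart except between CSP and mSSC.

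The labels were compared with defining transcripts. Thy1 was detected in 9 of 43 THY+ cells and in no cell of the other populations. The 6C3 transcript, Enpep, was found in 9 of 34 6C3+ and 3 of 43 THY+ cells. Transcripts of 2 antigens gave the opposite order to the CSP and mSSC gates: Cd200 was found in 9 of 11 CSP cells, against 8 of 37 mSSC cells. Eng, the CD105 transcript, was found in 0 of 11 CSP cells, against 8 of 37 mSSC cells. In the other CD105+ gates Eng was found in 3 of 34 6C3+ and 10 of 43 THY+ cells. Over all cells Cd200 was found in 9 of 26 CSP cells. CSP and mSSC are the names of the labels, and each direction between them rests on those labels. Of 15 chondrocyte markers, including Col2a1 and Acan, a median of 15 were detected per cell in CSP and in mSSC cells, against 9.5 in 6C3+ and 5 in THY+ cells. One CSP cell, with 4 of these 15 markers, and 4 mSSC cells, with 1 to 7, stood apart from the other 10 CSP cells (14 to 15) and 33 mSSC cells (13 to 15).

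The share of cells with each gene is shown with an exact Clopper-Pearson 95% interval, printed in parentheses below, which covers counting error only. How often such intervals separate over all genes was not counted, so separation is not shown to be particular to a member. Across the 10 genes the shares lay between 0% and 81.8%. A median of 1 member per cell was detected in 6C3+, CSP and mSSC cells and of 2 in THY+ cells, with at most 5 in any cell. A value of 0 in a single cell does not show that the transcript was absent.

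**Figure D1:**
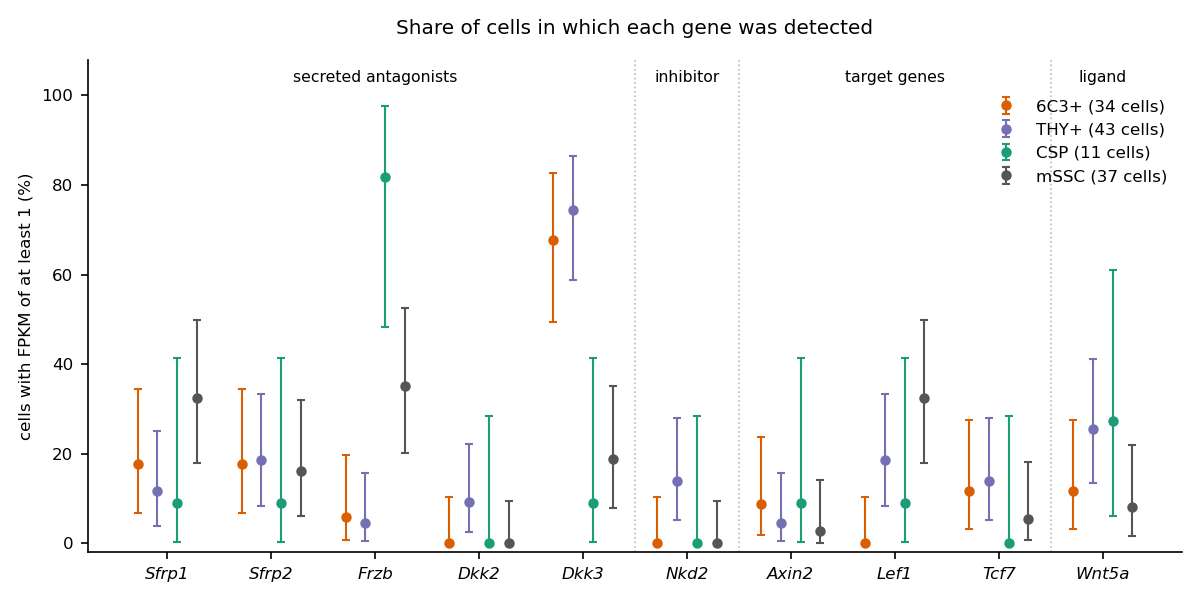
Percentage of cells (y axis) with an FPKM of at least 1 for each of the 10 genes (x axis), in 34 6C3+, 43 THY+, 11 CSP and 37 mSSC cells; points are shares and bars exact 95% intervals. Frzb reached 81.8% in CSP cells and Dkk3 67.6% in 6C3+ and 74.4% in THY+ cells, while Dkk2 and Nkd2 were above 0% in THY+ cells alone.

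Among the antagonists, Frzb and Dkk3 had opposite distributions. Frzb (chromosome 2, 80411970 to 80447625, minus strand, mm10) encodes a secreted frizzled-related protein first known from cartilage, and was found mainly in CSP and mSSC cells. It was detected in 2 of 34 6C3+ cells (5.88%, 0.72 to 19.7), 2 of 43 THY+ cells (4.65%, 0.568 to 15.8), 9 of 11 CSP cells (81.8%, 48.2 to 97.7) and 13 of 37 mSSC cells (35.1%, 20.2 to 52.5). The intervals of 6C3+ and THY+ lay below those of CSP and mSSC without overlap, and those of CSP and mSSC overlapped.

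Frzb levels in CSP cells ran from 0 over a median of 12 to 913 FPKM, and in mSSC cells from 0 over a median of 0 to 1148 FPKM. The 6C3+ and THY+ medians were 0, with highest values of 227.8 and 19.1 FPKM. Among the cells with Frzb the order of CSP and mSSC turned round: the median was 19.7 FPKM in the 9 CSP cells and 137.5 FPKM in the 13 mSSC cells. Over all cells Frzb was detected in 9 of 26 CSP cells (34.6%, 17.2 to 55.7), close to the 13 of 37 mSSC cells, since it was in none of the 15 CSP cells with under 1000 genes. The larger share in CSP was seen in the cells with at least 1000 genes alone. Without the cells with under 8 chondrocyte markers Frzb was in 9 of 10 CSP and 12 of 33 mSSC cells. The highest Frzb value of all, 1148 FPKM, belonged to an mSSC cell with 7 of 15 chondrocyte markers, which was also the mSSC cell with Axin2.

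Dkk3 (chromosome 7, 112116017 to 112159057, minus strand) encodes a divergent member of the Dickkopf family, whose effect on WNT signalling differs between settings. It was detected in 23 of 34 6C3+ cells (67.6%, 49.5 to 82.6), 32 of 43 THY+ cells (74.4%, 58.8 to 86.5), 1 of 11 CSP cells (9.09%, 0.23 to 41.3) and 7 of 37 mSSC cells (18.9%, 7.96 to 35.2). The 6C3+ and THY+ intervals did not overlap those of CSP and mSSC. Over all cells the Dkk3 share was 29.3% in 6C3+ (27 of 92, interval 20.3 to 39.8), 52.8% in THY+ (38 of 72, interval 40.7 to 64.7) and 3.85% in CSP (1 of 26, interval 0.0973 to 19.6). The 6C3+ interval then overlapped that of mSSC. Levels had a median of 8.11 FPKM and a highest value of 665.8 FPKM in 6C3+ cells, and a median of 26.5 and a highest value of 2142 FPKM in THY+ cells. In CSP the single positive cell had 30.1 FPKM, and in mSSC cells the median was 0 and the highest value 494.3 FPKM.

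The few CSP and mSSC cells with Dkk3 included the cells with few chondrocyte markers. The only CSP cell with Dkk3 was the one with 4 of 15 markers, which also held Sfrp2 at 183.6 FPKM and no Frzb. Without that cell Dkk3 was detected in 0 of 10 and Frzb in 9 of 10 CSP cells. In mSSC, Dkk3 was detected in 3 of the 4 cells with under 8 markers and in 4 of the 33 others (12.1%, 3.4 to 28.2). Within 6C3+ the 23 cells with Dkk3 had a median of 6 chondrocyte markers and 7 of 10 fibroblast and periosteal markers, against 12 and 5 in the 11 cells without it. Within THY+ the same medians were 6.5 and 6 in the 32 cells with Dkk3, against 3 and 5 in the 11 cells without it, so the chondrocyte marker medians had the opposite order there.

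**Figure D2:**
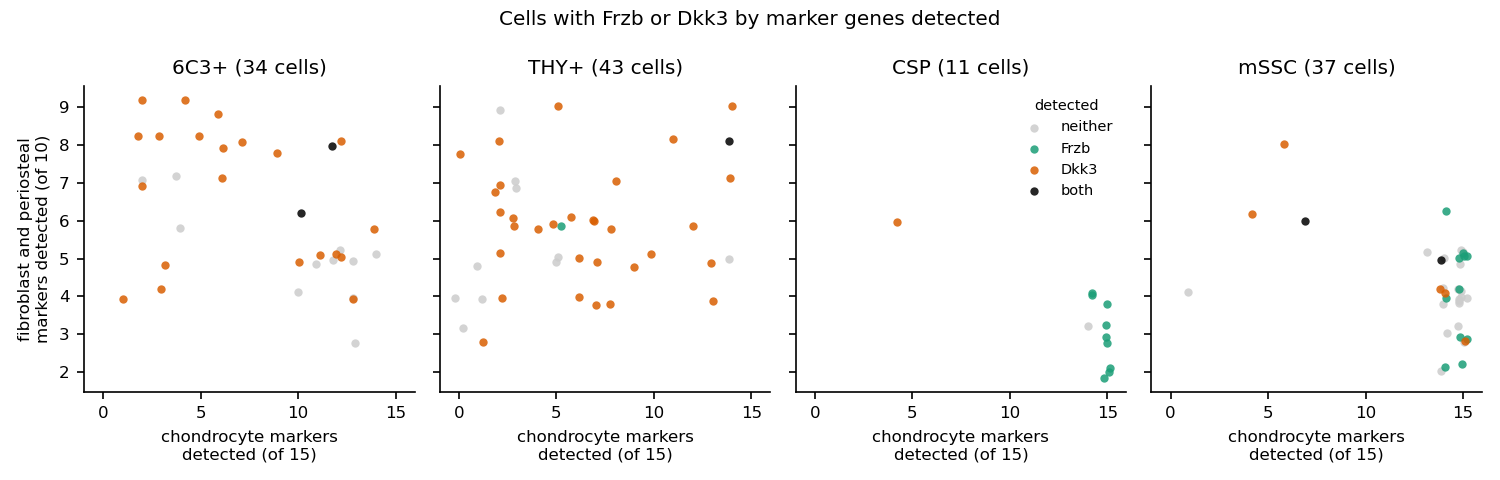
Number of 15 chondrocyte markers (x axis) and of 10 fibroblast and periosteal markers (y axis) detected in each cell, by population, coloured by detection of Frzb and Dkk3; points are cells, shifted slightly at random so that they do not hide each other. The CSP cell with Dkk3 lies at 4 chondrocyte markers, apart from the 10 other CSP cells at 14 to 15.

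THY+ cells also differed among themselves in markers of pericytes and smooth muscle. In the 13 THY+ cells with at least 5 of 11 such markers Dkk3 was detected in 7, against 25 of the 30 other THY+ cells. The intervals of these shares, 25.1% to 80.8% and 65.3% to 94.4%, overlapped. Summed over the list, the log2(FPKM + 1) of these markers ran from 0 to 46.9 in 6C3+, 0 to 90.1 in THY+, 5.25 to 8.3 in CSP and 0 to 87.8 in mSSC cells. Rgs5 and Pdgfrb were at 0 in all CSP cells. Without the 13 cells, the Dkk3 difference of mean log2(FPKM + 1) was 4.78 in THY+ minus CSP and 4.19 in THY+ minus mSSC, against 3.78 and 3.19 with them.

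Fndc1 and Postn had within-population patterns most like that of Dkk3. After subtracting each population's mean, the log2 level of Dkk3 had a Pearson r of 0.52 with Fndc1 and of 0.52 with Postn, which encodes a matrix protein of the periosteum and is itself on the fibroblast and periosteal list, over all cells with at least 1000 genes and among 7904 genes. These are descriptions: the cells share libraries and depth. Sfrp1, Frzb, Lef1 and Wnt5a had no gene at an r of 0.5 or more, and their highest values were 0.37, 0.42, 0.48 and 0.49. The other 5 members were detected in under 20% of cells of every population and were not compared in this way.

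Sfrp1 and Sfrp2, which encode secreted proteins that bind WNT ligands, were spread over all populations. Sfrp1 (chromosome 8, 23411502 to 23449632, plus strand) was detected in 6 of 34 6C3+ cells (17.6%, 6.76 to 34.5), 5 of 43 THY+ cells (11.6%, 3.89 to 25.1), 1 of 11 CSP cells (9.09%, 0.23 to 41.3) and 12 of 37 mSSC cells (32.4%, 18 to 49.8). Its highest values were 136.8 FPKM in 6C3+, 339.4 in THY+, 8.34 in CSP and 439.1 in mSSC cells, and every median was 0. The order of mean levels was mSSC, 6C3+, THY+ and CSP, and no neighbours in that order had separate intervals. All 12 mSSC cells with Sfrp1 had 14 or 15 chondrocyte markers. In 6C3+, 3 of the 6 cells with Sfrp1 were among the 4 libraries of the first index row.

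Sfrp2 (chromosome 3, 83766321 to 83774316, plus strand) was detected in 6 of 34 6C3+ cells (17.6%, 6.76 to 34.5), 8 of 43 THY+ cells (18.6%, 8.39 to 33.4), 1 of 11 CSP cells (9.09%, 0.23 to 41.3) and 6 of 37 mSSC cells (16.2%, 6.19 to 32). The intervals overlapped in every pair. Highest values were 184.2 FPKM in 6C3+, 481.9 in THY+, 183.6 in CSP and 89.1 in mSSC cells. The CSP cell was the one with 4 chondrocyte markers, and without it Sfrp2 was in 0 of 10 CSP cells. In THY+ cells Dkk3 was detected in 8 of the 8 cells with Sfrp2 and in 24 of the 35 without it. Those 8 cells had a median of 3603 detected genes, against 2773 in the other THY+ cells, and the part of gene number in this count was not tested. Of the 8, 4 were among the 9 THY+ libraries of the first index row. The median ERCC share was 6.07% in the 8 cells, against 23.4% in the other THY+ cells.

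**Figure D3:**
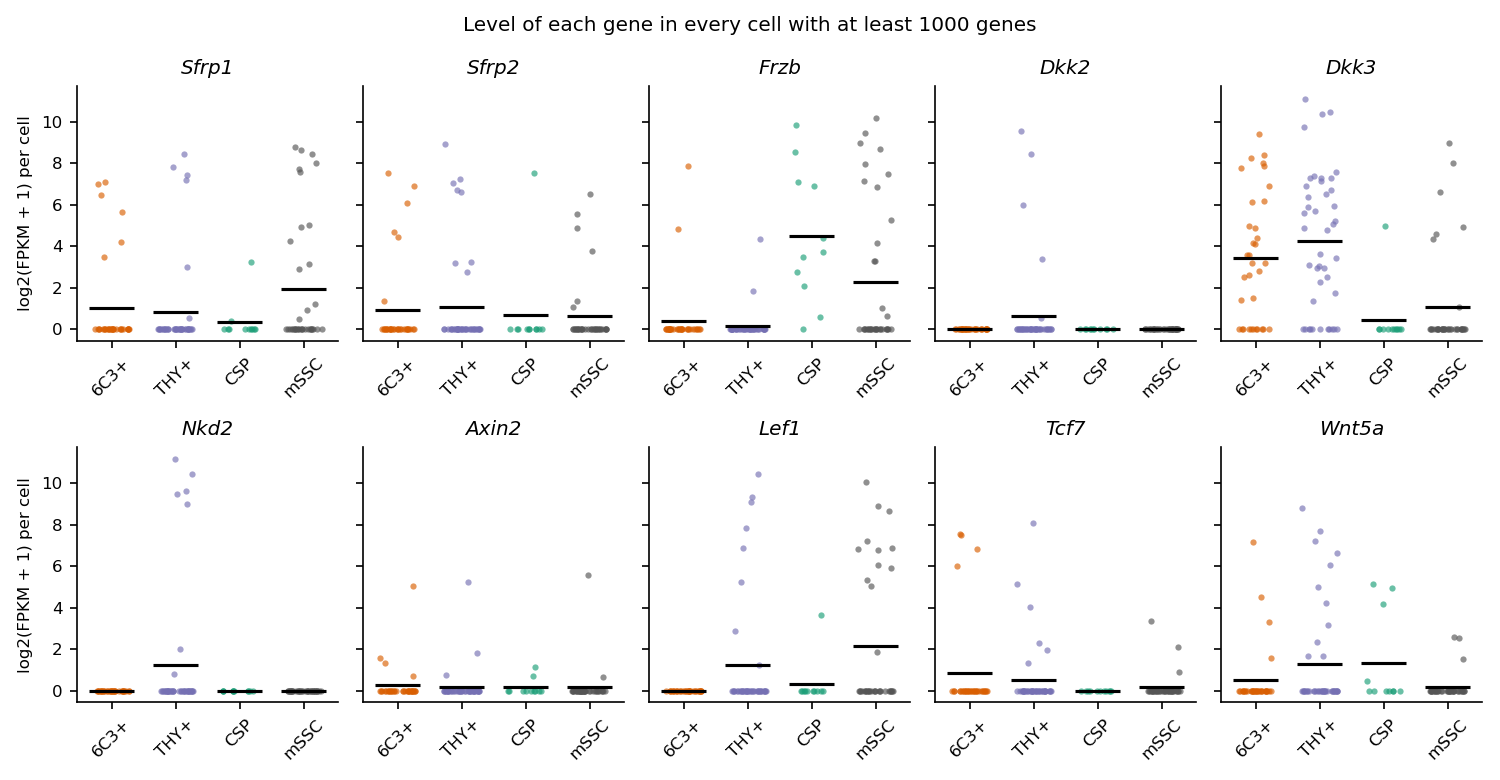
Level of each gene as log2(FPKM + 1) (y axis) in each cell with at least 1000 genes, by population (x axis); points are cells and black lines are means over cells. Most points lie at 0; for Frzb the CSP mean is highest although the highest single value is in mSSC, and Dkk3 has most of its points above 0 in 6C3+ and THY+ cells.

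Dkk2 and Nkd2 were detected in THY+ cells alone. Dkk2 (chromosome 3, 132085292 to 132180304, plus strand) was found in 4 of 43 THY+ cells (9.3%, 2.59 to 22.1) at 9.2, 62.3, 345.3 and 754.6 FPKM. Nkd2 (chromosome 13, 73818534 to 73847631, minus strand), whose product binds Dishevelled inside the cell and dampens the signal, was found in 6 of 43 THY+ cells (14%, 5.3 to 27.9). Its values were 3.0, 511.5, 715.4, 774.5, 1394 and 2279 FPKM, so 5 of the 6 were high. Each gene was detected in 0 of the 82 other cells, which allows a share of up to 3.66%, and in no cell outside THY+ at any gene number, which allows up to 1.94%. The THY+ intervals nonetheless overlapped that of each other population taken alone. No cell held both genes.

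The cells behind these counts were few and unevenly placed. Of the 4 cells with Dkk2, 3 were among the 9 THY+ libraries of the first index row, and the median ERCC share was 1.23% in the 4 cells, against 22% in the other THY+ cells. Without the libraries of the first 2 index rows, the Dkk2 difference of mean log2(FPKM + 1) in THY+ minus CSP and in THY+ minus mSSC was 0.15, against 0.65 with them. For Nkd2, with 4 of its 6 cells in those rows, it was 0.50 without them, against 1.22. Nkd2 was detected in 3 of the 13 THY+ cells with at least 5 pericyte and smooth muscle markers and in 3 of the 30 others, 1 of them at 3.0 FPKM. Wnt5a was detected in 4 of the 6 cells with Nkd2 and in 7 of the 37 other THY+ cells.

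Sequences just upstream of the start are printed for these THY+ genes and for the target genes Axin2 and Lef1, because the LEF and TCF proteins of the pathway act through DNA. The windows are RefSeq's, on GRCm38.p6, with the 250 bases before a RefSeq transcript start. For Lef1, which has 4 such windows with 1 to 3 cores each, the most upstream is printed, and it ends before the GENCODE start given below. Entries were matched for 7 of the 10 members. Capitals mark CTTTG, the core of the LEF and TCF motif, searched on both strands.
Dkk2, chr3:132085042-132085291, plus strand: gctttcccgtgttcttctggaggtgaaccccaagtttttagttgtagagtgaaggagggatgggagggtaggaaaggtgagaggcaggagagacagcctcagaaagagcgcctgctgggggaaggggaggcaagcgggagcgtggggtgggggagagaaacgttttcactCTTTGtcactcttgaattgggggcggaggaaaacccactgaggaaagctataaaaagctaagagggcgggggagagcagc
Nkd2, chr13:73847632-73847881, minus strand: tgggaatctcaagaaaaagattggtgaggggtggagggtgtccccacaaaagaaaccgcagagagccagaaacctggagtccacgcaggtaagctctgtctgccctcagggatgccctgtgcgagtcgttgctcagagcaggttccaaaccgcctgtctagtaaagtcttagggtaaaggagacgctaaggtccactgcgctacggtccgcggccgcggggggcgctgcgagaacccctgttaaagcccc
Axin2, chr11:108920099-108920348, plus strand: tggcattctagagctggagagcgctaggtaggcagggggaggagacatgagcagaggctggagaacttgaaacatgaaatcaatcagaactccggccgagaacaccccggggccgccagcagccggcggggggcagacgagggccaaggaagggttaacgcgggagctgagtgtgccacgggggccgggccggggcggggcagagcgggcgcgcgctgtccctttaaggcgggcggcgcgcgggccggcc
Lef1, chr3:131110047-131110296, plus strand: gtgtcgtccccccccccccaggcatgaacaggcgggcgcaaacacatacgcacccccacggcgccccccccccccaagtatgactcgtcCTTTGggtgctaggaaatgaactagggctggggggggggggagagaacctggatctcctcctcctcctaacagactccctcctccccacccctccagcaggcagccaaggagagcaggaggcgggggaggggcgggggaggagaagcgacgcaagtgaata
The core was found in the Dkk2 window, 80 bases before the start, and in this Lef1 window, and in neither the Nkd2 nor the Axin2 window. It was present in 48.6% of all 32851 windows, so its presence is common. Longer forms of 7 letters were rarer: CTTTGAT was in 3.21% of all windows, CTTTGAA in 4.46% and CTTTGTT in 5.03%, and no member's window held any of the 3. A further form, CTTTGTA, was not searched over all windows. The most downstream Lef1 window, which is not printed, holds it on the opposite strand, as TACAAAG. The windows and motifs were chosen after the expression values had been seen, and they describe sequence alone.

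The target genes followed no single order. Lef1 (chromosome 3, 131110471 to 131224356, plus strand), which encodes a partner of beta-catenin and is itself transcribed in response to WNT, was detected in 0 of 34 6C3+ cells, which allows a share of up to 8.82%. It was found in 8 of 43 THY+ cells (18.6%, 8.39 to 33.4), 1 of 11 CSP cells (9.09%, 0.23 to 41.3) and 12 of 37 mSSC cells (32.4%, 18 to 49.8). The interval of 6C3+, whose upper bound was 10.3%, and that of mSSC did not overlap. Highest values were 1378 FPKM in THY+, 11.3 in CSP and 1052 in mSSC cells. Over all 92 6C3+ cells Lef1 was detected in 1.

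The 12 mSSC cells with Lef1 all had 14 or 15 of 15 chondrocyte markers, and Lef1 was in 0 of the 4 mSSC cells with under 8. In THY+ cells the 8 with Lef1 had a median of 11 chondrocyte markers, against 5 in the 35 without it. Their median gene number was 3414, against 2800, and 3 of the 8 lay in the first index row. Of the 8 THY+ cells with Sfrp2, 4 held Lef1, against 4 of the 35 without Sfrp2.

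Tcf7 (chromosome 11, 52252371 to 52283014, minus strand), which encodes the TCF1 partner of beta-catenin, was detected in 4 of 34 6C3+ cells (11.8%, 3.3 to 27.5), 6 of 43 THY+ cells (14%, 5.3 to 27.9), 0 of 11 CSP cells and 2 of 37 mSSC cells (5.41%, 0.661 to 18.2). The 4 6C3+ cells had 63.2, 111.2, 179.9 and 187.3 FPKM, and the 2 mSSC cells 3.25 and 9.15 FPKM. The 6 THY+ values ran from 1.47 to 265.4 FPKM with a median of 9.67. All intervals overlapped. Tcf7 was in 0 of the 13 THY+ cells with at least 5 pericyte and smooth muscle markers and in 6 of the 30 others.

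Axin2 (chromosome 11, 108920349 to 108950783, plus strand), a feedback inhibitor that helps degrade beta-catenin and is a widely used readout of the canonical pathway, was rare everywhere. It was detected in 3 of 34 6C3+ cells (8.82%, 1.86 to 23.7), 2 of 43 THY+ cells (4.65%, 0.568 to 15.8), 1 of 11 CSP cells (9.09%, 0.23 to 41.3) and 1 of 37 mSSC cells (2.7%, 0.0684 to 14.2). Values were 1.54, 1.99 and 31.4 FPKM in 6C3+, 2.53 and 36 in THY+, 1.18 in CSP and 46.1 in mSSC cells. No 2 populations were separated by their intervals. Without the mSSC cells with under 8 chondrocyte markers Axin2 was in 0 of 33 mSSC cells.

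Wnt5a (chromosome 14, 28504750 to 28527448, plus strand) encodes a ligand known mainly for signalling without beta-catenin. It was detected in 4 of 34 6C3+ cells (11.8%, 3.3 to 27.5), 11 of 43 THY+ cells (25.6%, 13.5 to 41.2), 3 of 11 CSP cells (27.3%, 6.02 to 61) and 3 of 37 mSSC cells (8.11%, 1.7 to 21.9). The 3 CSP cells had 17, 30.1 and 33.9 FPKM and the 3 mSSC cells 1.84, 4.77 and 5.01 FPKM, so every positive CSP value was above every positive mSSC value. Without the mSSC cells with under 8 chondrocyte markers Wnt5a was in 2 of 33. In THY+ cells the highest value was 447.2 and in 6C3+ cells 143.5 FPKM. The share intervals overlapped in every pair.

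The populations were then set against each other by the difference of mean log2(FPKM + 1), taken over 10071 genes detected in a mean share of at least 5% of cells. Dkk2 and Nkd2 fell short of that share, so 8 of the 10 members entered. A difference of at least 2 in either direction was counted as large. It is a rule of size and not a test. Of the 48 differences of these 8 members, 9 were large, and they belonged to Frzb, Dkk3 and Lef1. Of all genes tested, 0.953% to 7.57% were past 2, depending on the pair. The 6 pairs reuse the means of 4 populations, so the 9 are not separate results.

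Dkk3 was higher and Frzb lower in both 6C3+ and THY+ cells than in CSP cells. In 6C3+ minus CSP, Dkk3 differed by 2.95 (means of 3.40 and 0.45) and Frzb by -4.11 (means of 0.37 and 4.48). The SDs over cells were 3.09 and 1.49 for Dkk3 and 1.56 and 3.22 for Frzb. Of all genes, 1.45% were higher and 6.05% lower by as much in this comparison. In THY+ minus CSP, Dkk3 differed by 3.78 and Frzb by -4.34, where 2.72% of genes were higher and 4.85% lower. The median over all genes was -0.11 in 6C3+ minus CSP and 0.08 in THY+ minus CSP, beside 0.16 and 0.42 over the 8 members. With all cells in place of those with at least 1000 genes, Frzb differed by -1.77 and -1.85 and Dkk3 by 1.22 in 6C3+ minus CSP, under the size rule.

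Dkk3 was also higher in both 6C3+ and THY+ cells than in mSSC cells. In 6C3+ minus mSSC it differed by 2.36 (means of 3.40 and 1.04) and Lef1 by -2.15 (means of 0 and 2.15), where 0.586% of genes were higher and 3.49% lower. In THY+ minus mSSC, Dkk3 differed by 3.19 and Frzb by -2.13 (means of 0.14 and 2.28), where 1.51% were higher and 2.41% lower. Over all cells Dkk3 differed by 0.38 in 6C3+ minus mSSC and by 1.71 in THY+ minus mSSC, both under the size rule. Frzb in 6C3+ minus mSSC, at -1.90, lay just outside the rule, and the Lef1 difference of 6C3+ minus mSSC was -1.16 with a pseudocount of 10.

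Between CSP and mSSC cells, which shared an index set, Frzb alone among the members was large, at 2.20 (means of 4.48 and 2.28, SDs over cells of 3.22 and 3.50). In this comparison 2.88% of genes were higher and 1.47% lower. The result depends on the choice of cells: over all 26 CSP cells, 15 of which had few genes and no Frzb, the difference was -0.34. With at least 2000 genes per cell it was 1.37. Lef1 differed by -1.82 and Wnt5a by 1.16. Without the CSP and mSSC cells with under 8 chondrocyte markers, all 9 large member differences stayed past 2, and Lef1 in CSP minus mSSC joined them at -2.05.

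Between 6C3+ and THY+ cells no member reached 2 in the difference of mean log2(FPKM + 1), and 0.179% of genes were higher and 0.775% lower. The largest member difference was that of Lef1, at -1.23. With the log2 taken after averaging FPKM, which gives weight to single high cells, 5 members passed 2 in this pair. So did 27.7% of all genes tested, 258 higher and 2530 lower of 10071. The 5 members were Frzb, higher at 2.50, Wnt5a, just past the rule on the lower side, and Lef1, Dkk2 and Nkd2. Lef1, Dkk2 and Nkd2 were lower and listed at 0 in every 6C3+ cell used, and Dkk2 and Nkd2 had not passed the filter on genes. Rescaling each cell to the same total FPKM moved the balance of higher and lower genes. Of the genes past 2 in 6C3+ minus THY+, 72.7% were then higher, against 18.8% before. The same shares were 41% against 19.3% in 6C3+ minus CSP, 66.1% against 14.4% in 6C3+ minus mSSC, 49.9% against 38.5% in THY+ minus mSSC and 80.7% against 66.2% in CSP minus mSSC. In THY+ minus CSP the share moved little, at 33.8% against 36%. All 9 large member differences kept their direction and stayed past 2 with this scaling.

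**Figure D4:**
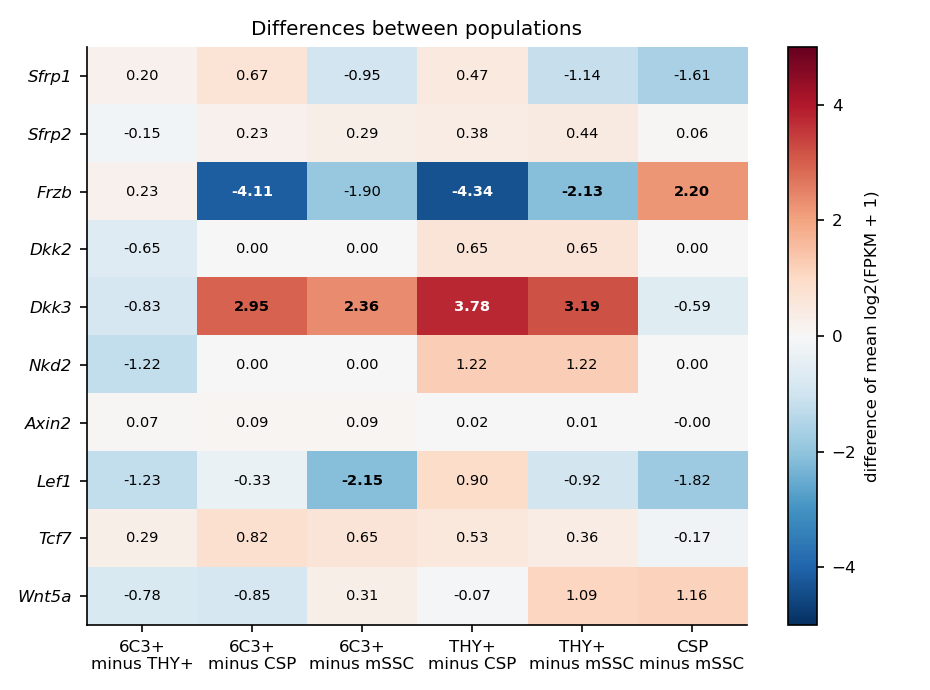
Difference of mean log2(FPKM + 1) (colour and printed value) for the 10 genes (rows) in 6 pairs of populations (columns), red where the first-named population was higher; values of at least 2 in either direction are bold. Dkk3 and Frzb have opposite colours wherever 6C3+ or THY+ is set against CSP or mSSC, and 6C3+ minus THY+ has no bold value.

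The antagonists were next compared with the target genes cell by cell. At least 1 of the 5 antagonists was detected in 30 of 34 6C3+ cells (88.2%, 72.5 to 96.7), 38 of 43 THY+ cells (88.4%, 74.9 to 96.1), 11 of 11 CSP cells (100%, 71.5 to 100) and 26 of 37 mSSC cells (70.3%, 53 to 84.1). The high shares rested on different genes. Dkk3 was the only antagonist in 18 of the 25 6C3+ and 22 of the 28 THY+ cells that held exactly 1, and Frzb in 9 of 10 such CSP cells. In the 16 such mSSC cells it was Sfrp1 in 5, Frzb in 5, Dkk3 in 4 and Sfrp2 in 2.

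At least 1 of the 3 target genes was detected in 7 of 34 6C3+ cells (20.6%, 8.7 to 37.9), 12 of 43 THY+ cells (27.9%, 15.3 to 43.7), 2 of 11 CSP cells (18.2%, 2.28 to 51.8) and 14 of 37 mSSC cells (37.8%, 22.5 to 55.2). These intervals overlapped in every pair. Target genes were found in cells with any of the 5 antagonists as well as without. They were in 6 of 30 6C3+, 12 of 38 THY+, 2 of 11 CSP and 10 of 26 mSSC cells with an antagonist, and in 1 of 4 6C3+, 0 of 5 THY+ and 4 of 11 mSSC cells without. In mSSC the shares were 38.5% (20.2 to 59.4) with and 36.4% (10.9 to 69.2) without an antagonist. Cells without an antagonist here lack the 5 members alone. Other secreted antagonists were not counted, such as Wif1, in 21 of 34 6C3+ and 15 of 37 mSSC cells, and Sfrp5, in 5 of 37 mSSC cells.

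Cells with a target gene had more detected genes. The medians were 2877 with and 2607 without a target in 6C3+, 3365 and 2773 in THY+, 3331 and 3033 in CSP, and 2838 and 2444 in mSSC cells. The part of gene number in these counts was not tested. Spearman's rho between the summed log2 levels of antagonists and of targets was 0.12 over 34 6C3+, 0.03 over 43 THY+, -0.42 over 11 CSP and 0.23 over 37 mSSC cells, each over cells of 1 library set, and with the target sum at 0 in most cells.

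**Figure D5:**
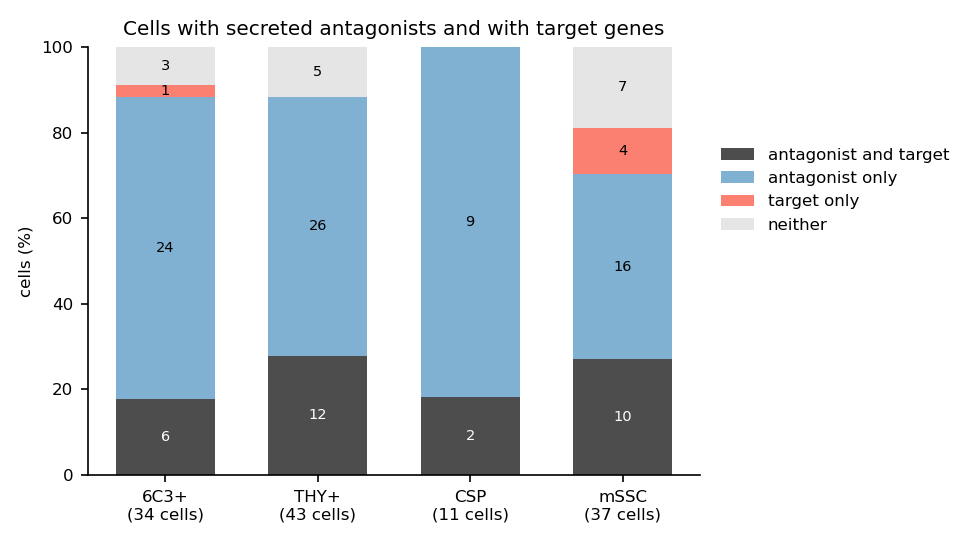
Percentage of cells (y axis) in each population (x axis) with both an antagonist and a target gene, an antagonist only, a target only or neither; numbers in the bars count cells. Antagonist-only cells are the most numerous class in each population, and 4 mSSC and 1 6C3+ cell hold a target alone.

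The rest of the pathway was read from a list of 96 further genes, of which 59 passed the filter on the share of cells. Core components ranged from rare to common. Among the rarer, Axin1 was detected in 17.6% of 6C3+, 16.3% of THY+, 27.3% of CSP and 16.2% of mSSC cells. Btrc was in 11.8%, 14%, 0% and 10.8% in that order. Ctnnb1, which encodes beta-catenin, was detected in 79.4% of 6C3+, 79.1% of THY+, 90.9% of CSP and 81.1% of mSSC cells, and Tcf7l2, a further DNA-binding partner, in 79.4%, 74.4%, 63.6% and 86.5% in that order. Neither reached a difference of 2 in any pair. Of 18 other WNT ligand genes 9 were detected in no cell. Wnt5b was found in 5 of 11 CSP cells, against 1 of 34 6C3+, 3 of 43 THY+ and 0 of 37 mSSC cells, and Wnt4 in 4 of 34 6C3+, 3 of 43 THY+, 3 of 11 CSP and 3 of 37 mSSC cells. Wls, needed for secretion of WNT ligands, was detected in 43.2% of mSSC to 67.6% of 6C3+ cells.

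Among other inhibitors, Wif1 and Znrf3 were the ones past 2 in a pair. Wif1, a secreted protein that binds WNT ligands, was detected in 21 of 34 6C3+, 15 of 43 THY+, 3 of 11 CSP and 15 of 37 mSSC cells. It differed by 2.66 in 6C3+ minus THY+ and by 2.68 in 6C3+ minus CSP. Of the 59 genes tested it was the only one past 2 in 6C3+ minus THY+. The Wif1 share interval of 6C3+ (43.6% to 77.8%) overlapped those of THY+ (21 to 50.9) and CSP (6.02 to 61). Znrf3, an enzyme that removes Frizzled receptors from the surface, was lower than in mSSC cells in every other population: by -2.31 in 6C3+ minus mSSC, by -2.41 in THY+ minus mSSC and by -2.01 in CSP minus mSSC. It was detected in 8 of 34 6C3+, 7 of 43 THY+, 3 of 11 CSP and 20 of 37 mSSC cells. The mSSC interval of Znrf3 (36.9% to 70.5%) overlapped those of 6C3+ (10.7 to 41.2) and CSP (6.02 to 61). It lay above that of THY+ (6.81 to 30.7). Lgr4, a receptor for R-spondins, differed by -2.82 in THY+ minus mSSC.

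Of 11 other genes known as WNT targets in some tissues, 9 entered the comparisons, and they differed in both directions. Myc, a growth regulator, was lower by -2.03 in 6C3+ minus CSP, by -3.33 in 6C3+ minus mSSC and by -3.09 in THY+ minus mSSC. Cd44, a hyaluronan receptor, was higher by 3.96 in THY+ minus CSP and by 3.41 in THY+ minus mSSC. Runx2, an osteoblast and hypertrophic cartilage regulator, differed by -2.39 in 6C3+ minus CSP and by 2.19 in CSP minus mSSC. Among the cytoplasmic components, Dvl3, which relays the signal from Frizzled, differed by 2.45 in THY+ minus CSP and by -2.48 in CSP minus mSSC. Over the 59 genes together the counts past 2 were 1 higher and 0 lower in 6C3+ minus THY+, 1 and 2 in 6C3+ minus CSP, 0 and 2 in 6C3+ minus mSSC, 2 and 0 in THY+ minus CSP, 1 and 3 in THY+ minus mSSC, and 1 and 2 in CSP minus mSSC. As shares of the 59 they were 1.69%, 5.08%, 3.39%, 3.39%, 6.78% and 5.08% in that order, beside 0.953%, 7.5%, 4.07%, 7.57%, 3.92% and 4.35% of all genes.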

How the data were processed

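Expression was measured in 227 single cells sorted from mouse long bones, captured on Fluidigm C1 chips with SMARTer reagents, ERCC RNA added and Nextera XT tagmentation, per the labels' protocols. The labels also state that capture sites were imaged and single live cells kept. FPKM values for 24388 genes and 92 spike-ins were used as deposited by the authors. The submitters' processing notes name mm10 and SAMtools. The aligner, estimation program and annotation were not given in those sources. FPKM is an estimate from which reads were not recovered, so the depth per cell is unknown.

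Cells were matched to labels by their index names, with 0 columns unmatched. The 10 members and all gene lists were chosen with earlier results of these data known. Cells with at least 1000 genes were used, with a pseudocount of 1. All members were named, and of the pathway list the called genes and up to 4 per role with the highest share of cells. Called genes outside these were named after their values were seen. Axin1 and Btrc, named as rarer core components, also fall outside this rule. Shares have exact Clopper-Pearson 95% intervals, and at 0 cells the limit is 3 counts of the total. Patterns like a member's needed a member in at least 20% of cells of 1 population, a gene in at least 10% of cells and a Pearson r of at least 0.5. Coordinates are GENCODE's for mm10.

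The difference of means was tested on simulated data. Its arithmetic returned planted folds exactly for genes above 0 in every cell, with no pseudocount. No member was above 0 in every cell. With cells resampled at the size of CSP, the first version missed the acceptance level set for it: genes planted higher had the right sign less often than required. The level was lowered after that result was seen, so the simulation gives weak assurance for comparisons with CSP. The resampled genes were each detected in a larger share of mSSC cells than any member, of which Frzb had the highest at 35.1%. Neither check covers genes detected as rarely as the members. Alternatives tried were all cells, pseudocounts of 0.1 and 10, a total of 1000000 FPKM in every cell, averaging before taking log2, at least 2000 or 2000 to 3500 genes, no filter on genes, detection above 0 or at 10, THY+ cells with under 5 pericyte markers and cells without the first 2 index rows. Detection after rescaling and the removal of CSP and mSSC cells with under 8 of 15 chondrocyte markers were added after seeing the data. Software was scipy 1.17.1, pandas 2.3.3, numpy 2.4.6 and matplotlib 3.10.9 under Python 3.11.15.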

Additional observations from a re-analysis of the deposited data

Results flagged for a closer look

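In the cells with under 1000 genes, which the comparisons do not use, every member but Nkd2 was detected. Axin2 and Tcf7 were in 2 of these cells each, and Sfrp1, Frzb, Dkk2 and Wnt5a in 1 each. For 3 members the share passed 2.94%, the limit that a count of 0 among these cells allows. Passing it is a rule for flagging and not a test. Dkk3 was detected in 10 of these cells (9.8%), of which 6 were THY+ and 4 6C3+. Sfrp2 was detected in 7, of which 2 were THY+ and 5 6C3+. Lef1 was detected in 4, of which 3 were THY+ and 1 6C3+. None of the 3 was detected in the 15 CSP cells with under 1000 genes, which allows a share of up to 20%.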

How the results depend on the processing

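Of 660 member differences over 11 settings, 612 stayed on their side of 2. Of these 36 changed sign, all of them under 2 before, with sizes up to 0.47, and up to 1.56 after the change. Part of the 612 could not move. Dropping the filter on genes leaves all 60 member differences as they are. Settings on the cells of some populations leave pairs of the others unchanged. Dkk2 and Nkd2 differ by about 0 between populations in which they were not detected. Of the 660, 31 went past 2, of which 24 on the log2 of the mean, all in their first direction, and 16 dropped under 2. Among the 9 large differences the one to change sign was Frzb in CSP minus mSSC, at -0.34 over all cells; the same difference was 1.37 with at least 2000 genes, 0.61 on the log2 of the mean and 0.95 with a pseudocount of 10. Over all cells Frzb was -1.77 in 6C3+ minus CSP and -1.85 in THY+ minus CSP, and Dkk3 1.22 in 6C3+ minus CSP, 0.38 in 6C3+ minus mSSC and 1.71 in THY+ minus mSSC. With a pseudocount of 10 Dkk3 was 1.41, 1.07, 1.96 and 1.62 in 6C3+ minus CSP, 6C3+ minus mSSC, THY+ minus CSP and THY+ minus mSSC, Frzb -1.20 in THY+ minus mSSC and Lef1 -1.16 in 6C3+ minus mSSC. Lef1 was -1.86 with 2000 to 3500 genes, and Dkk3 1.49 in 6C3+ minus mSSC on the log2 of the mean. The cause was not tested.

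Cells with any antagonist were 43.5% of 6C3+, 63.9% of THY+ and 42.3% of CSP cells over all cells, and 67.6% of 6C3+ and 67.4% of THY+ cells with detection at an FPKM of 10. The percentage of all genes past 2 moved most. In the order 6C3+ minus THY+, 6C3+ minus CSP, 6C3+ minus mSSC, THY+ minus CSP, THY+ minus mSSC and CSP minus mSSC it was 0.953%, 7.5%, 4.07%, 7.57%, 3.92% and 4.35%, against 3.94%, 17.3%, 8.47%, 18.5%, 9.84% and 12.3% with a pseudocount of 0.1. It was 0.159%, 2.08%, 1.52%, 1.93%, 1.27% and 0.745% with a pseudocount of 10. On the log2 of the mean it was 27.7%, 30.3%, 29.6%, 38%, 24.1% and 32.1%, and over all cells 2.28%, 1.09%, 16.4%, 2.02%, 9.79% and 13.4%. In 6C3+ minus THY+ it was 2.13% with at least 2000 genes and 3.06% with 2000 to 3500, and in THY+ minus mSSC 6.08% without the first 2 index rows.

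No paired analysis was possible because each cell is its own library, no animal is named and no test was made. Depth in reads is unknown, so a gene at 0 may have gone undetected, and the 11 CSP cells limit every comparison with them.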
